A study of Mus musculus with 8 samples.

Results

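Il7r, Flt3, Ccr9, Ccr7, Cd27, Cd52 and Blnk encode receptors, surface proteins and an adaptor of early lymphoid progenitors, and their expression was followed in haematopoietic stem cells of mouse fetal liver. The 7 genes were chosen by name from a list drawn up when genotype differences on these same arrays were already known, and every probe set annotated with exactly 1 of these symbols was taken. This gave 12 of the 45037 probe sets that are not controls, with 5 for Ccr9, 2 for Il7r and 1 for each other gene. The comparison of Crebbp+/- with wild type therefore describes these genes and does not test them.

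The cells were sorted as Sca-1+, Lin-, AA4.1+ and strongly c-Kit+ from C57BL/6 embryos, each preparation combining 15 embryos. The description field states 14.5 days post coitum and the characteristics field 14. One group was wild type and the other Crebbp+/-, carrying 1 mutant copy of the gene for CBP, a histone acetyltransferase and transcriptional coactivator. The labels do not say which part of Crebbp the mutant allele lacks. Each group had 2 numbered samples and each sample 2 Affymetrix arrays. Whether each number stands for its own litter is not in the labels, so the p-values below measure only the spread between these preparations. Repeat arrays were averaged, which gave n = 2 per genotype. Because each preparation is a mixture of cells, fewer cells of a type and less RNA per cell cannot be told apart.

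The interleukin-7 receptor pairs its alpha chain, the product of Il7r, with the common gamma chain and signals through JAK1, JAK3 and STAT5. In mice it is required for the growth of B and T cell precursors. FLT3 is a receptor tyrosine kinase whose appearance on multipotent progenitors goes with lymphoid potential. CCR9 and CCR7 are chemokine receptors that guide progenitors to the thymus, CCR9 through CCL25 and CCR7 through CCL19 and CCL21. CD27 is a receptor of the tumour necrosis factor receptor family that binds CD70, CD52 is a very short glycoprotein held in the membrane by a lipid anchor, and BLNK is the adaptor that links SYK to downstream signals of the pre-B cell receptor.

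The promoters of Ccr9, Il7r and Flt3 are shown because the first pair gave the largest genotype differences among these genes and Flt3, of the same progenitor stage, differed little. They were taken from RefSeq sequences of GRCm38.p6, which covered 5 of the 7 genes, and run up to the base before the gene. The bases of Ccr9 lie at chr9:123766961-123767210 on the plus strand, those of Il7r at chr15:9529942-9530126 on the minus strand and those of Flt3 at chr5:147400490-147400739 on the minus strand. Capitals mark matches to the motifs described next.
Ccr9: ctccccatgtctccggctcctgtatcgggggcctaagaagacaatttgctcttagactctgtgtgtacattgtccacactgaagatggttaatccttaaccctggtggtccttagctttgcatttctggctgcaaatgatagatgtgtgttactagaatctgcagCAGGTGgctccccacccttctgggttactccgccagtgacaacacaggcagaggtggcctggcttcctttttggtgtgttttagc
Il7r: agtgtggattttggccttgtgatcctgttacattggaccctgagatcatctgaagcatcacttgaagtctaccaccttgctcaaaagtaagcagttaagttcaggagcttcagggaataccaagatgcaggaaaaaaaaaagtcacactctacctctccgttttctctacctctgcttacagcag
Flt3: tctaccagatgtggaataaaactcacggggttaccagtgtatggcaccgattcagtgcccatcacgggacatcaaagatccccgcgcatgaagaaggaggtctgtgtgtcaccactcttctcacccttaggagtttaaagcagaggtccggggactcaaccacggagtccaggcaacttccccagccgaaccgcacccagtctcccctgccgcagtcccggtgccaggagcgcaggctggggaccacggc

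The full 250 bases before the listed start site were searched on both strands for 5 motifs. For Il7r and Cd27 these include bases inside the annotated gene, which are not printed. TGACG is the half-site of the cAMP response element that CREB, a recruiter of CBP, binds, and TGACGTCA is the full element, which contains the half-site. CACCTG is an E-box form of the E proteins, GAGGAA a core of PU.1 sites and TGTGGT a core of RUNX sites. Of 32851 promoters of this length, 17.8% held TGACG, 1.55% TGACGTCA, 17.2% CACCTG, 23.3% GAGGAA and 14.0% TGTGGT. Among the 5 genes with a sequence, Ccr9 held 1 CACCTG on the minus strand, starting 85 bases before its start site, and Blnk held 1 on the plus strand, 160 bases before its start site. No other match was found in these 5 windows. A match describes the letters only.

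Values are GCRMA log2 signals, so a difference of 1 is a doubling of signal. Levels of different probe sets are not compared with each other, since each has its own probes. A probe set was tested if its mean over the 4 samples exceeded the median of all such means, 2.72, which lies near the background that GCRMA assigns. A gene is called above background by this mean, so single samples of it can lie on the other side. This held for 8 of the 12 probe sets, from 5 genes, and for 22518 in all. Just above the limit was the third-brightest Ccr9 probe set at a mean of 3.08, and just below it another Ccr9 probe set at 2.62. Sorted cells carried the transcripts of Kit, at 9.05 to 9.36 over the samples, Cd93, the AA4.1 antigen, at 12.05 to 12.33, and Ptprc, the pan-leukocyte phosphatase, at 10.61 to 10.81. No probe set used here named Ly6a, which encodes Sca-1. Crebbp itself was at 12.07 and 11.41 in wild-type samples 1 and 2 and at 11.95 and 11.66 in Crebbp+/- samples 1 and 2, a log2 difference of 0.07 (SE 0.26). Whether these probes lie in the altered part of the gene is not given in the sources used here, so they do not check the genotype.

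**Figure D1:**
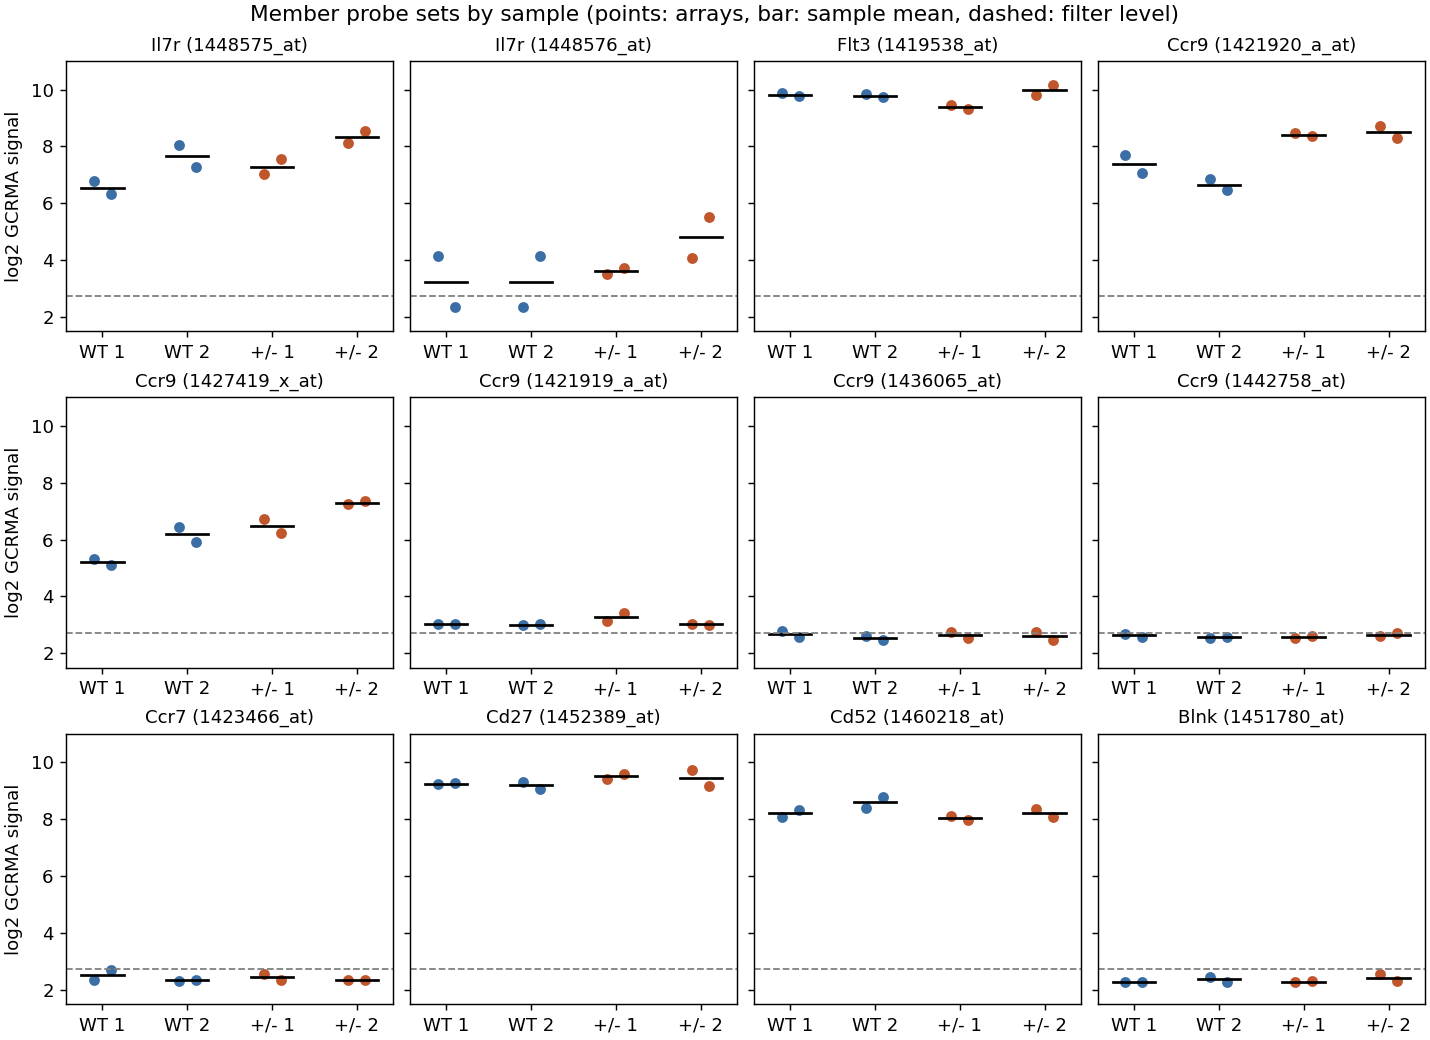
GCRMA log2 signal of the 12 probe sets in wild-type (WT) and Crebbp+/- (+/-) samples 1 and 2, with a point for each array, a bar for the sample mean and a dashed line at the filter level of 2.72. Ccr7, Blnk and 2 of the Ccr9 probe sets have means below the line, and the brightest Ccr9 probe set lies higher on all 4 Crebbp+/- arrays than on all 4 wild-type arrays.

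Ccr9 had the largest genotype difference of these genes, and 2 of its 5 probe sets carried it. Its brightest probe set, 1421920_a_at, gave array values of 7.69 and 7.06 in wild-type sample 1 and of 6.85 and 6.46 in wild-type sample 2. In Crebbp+/- the values were 8.45 and 8.35 in sample 1 and 8.71 and 8.28 in sample 2. Every Crebbp+/- array lay above every wild-type array, as at 3.24% of all tested probe sets. The wild-type mean was 7.02 ± 0.51 (SD, n = 2) and the Crebbp+/- mean 8.45 ± 0.06. The log2 difference was 1.43 (SE 0.33), with 1.03 for number 1 and 1.84 for number 2. With 1 sample or array left out the difference ran from 1.07, without wild-type sample 2, to 1.79, without wild-type sample 1. A higher difference was found at 0.155% of all tested probe sets, and the limma adjusted p was 0.99. Since Ccr9 was chosen with this contrast known, nothing is read from these shares.

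The second Ccr9 probe set, 1427419_x_at, had sample means of 5.21 and 6.19 in wild type and 6.48 and 7.31 in Crebbp+/-. Both Crebbp+/- sample means lay above both wild-type means, as at 15.6% of all tested probe sets. The arrays overlapped, since 1 wild-type array read 6.44 and 1 Crebbp+/- array 6.25. The log2 difference was 1.19 (SE 0.49), 1.27 within number 1 and 1.12 within number 2. Without wild-type sample 1 it was 0.71, and without wild-type sample 2 it was 1.68. The suffix _x_at marks a probe set whose probes can match other sequences. Over the 8 arrays the 2 probe sets correlated at 0.61, and in wild type they moved in opposite directions between samples, by -0.72 and 0.97 from sample 1 to sample 2. The other 3 Ccr9 probe sets stayed between 2.46 and 3.41 on every array and differed by 0.13, 0.02 and 0.03, so they carried almost no signal to compare.

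Il7r came next, with a difference that moved widely as single samples were left out. Its brightest probe set, 1448575_at, had sample means of 6.55 and 7.67 in wild type and of 7.29 and 8.33 in Crebbp+/-. The ranges overlapped, because wild-type sample 2 lay above Crebbp+/- sample 1. Group means were 7.11 ± 0.79 (SD, n = 2) and 7.81 ± 0.74, and the log2 difference was 0.70 (SE 0.55), with 0.73 within number 1 and 0.66 within number 2. It was 0.14 without wild-type sample 1 and 0.18 without Crebbp+/- sample 2, the lowest and the highest sample, and 1.26 without wild-type sample 2 and 1.22 without Crebbp+/- sample 1. The dimmer probe set, 1448576_at, was higher in both Crebbp+/- samples than in both wild-type samples, as were 15.6% of all tested probe sets. It differed by 0.96 (SE 0.44), with 0.37 and 1.56 within numbers 1 and 2. The repeat arrays of wild-type sample 1 read 4.14 and 2.34 and those of wild-type sample 2 read 2.34 and 4.14, so repeats of a single sample were farther apart than the genotypes. A larger gap between repeats was seen at only 3.65% of tested probe sets, and without Crebbp+/- sample 2 this difference was 0.37.

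Flt3 and Cd27 were well above background in every sample, with smaller differences. The Flt3 probe set had sample means of 9.82 and 9.79 in wild type and of 9.40 and 9.99 in Crebbp+/-. The Crebbp+/- samples thus lay on either side of both wild-type samples. The log2 difference was -0.11 (SE 0.26, 95% confidence interval -0.78 to 0.56), and its sign differed between numbers, at -0.43 within number 1 and 0.20 within number 2. It became 0.19 without Crebbp+/- sample 1 and -0.41 without Crebbp+/- sample 2.

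For Cd27 the sample means were 9.25 and 9.19 in wild type and 9.50 and 9.43 in Crebbp+/-. Both Crebbp+/- means were higher, as at 15.6% of all tested probe sets. The Crebbp+/- arrays, at 9.15 to 9.71, overlapped those of wild type, at 9.06 to 9.31. The log2 difference was 0.25 (SE 0.18, interval -0.23 to 0.73), nearly equal within number 1 (0.25) and number 2 (0.24). It ranged from 0.11 without array 1 of Crebbp+/- sample 2 to 0.39 without array 2 of that sample, whose repeats lay 0.56 apart.

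Cd52 was the gene among those above background with the lowest difference, at -0.26 (SE 0.25, interval -0.92 to 0.40). Its sample means were 8.20 and 8.59 in wild type and 8.05 and 8.22 in Crebbp+/-, and Crebbp+/- sample 2 lay just above wild-type sample 1. Within the numbers it differed by -0.16 and -0.37. The difference was -0.46 without wild-type sample 1 and -0.07 without wild-type sample 2.

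Ccr7 and Blnk gave no signal above background in either genotype. Sample means of Ccr7 lay between 2.33 and 2.51 and those of Blnk between 2.29 and 2.42, all below 2.72. Both had 1 probe set, so a transcript that this probe set misses would not have been seen.

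Of the 8 tested probe sets, 6 had a positive genotype difference, and 6 were higher in Crebbp+/- within both sample numbers, against 33.9% of all tested probe sets. Both Crebbp+/- samples lay above both wild-type samples for 4 of the 8, against 15.6% of all, and all 4 arrays did so for 1, against 3.24%. In limma 0 of the 8 passed an adjusted p of 0.05, as did 0% of all tested probe sets, and 1 of the 8 had an unadjusted p under 0.05, against 4.84% of all (1089 probe sets). Since the genes were chosen with this contrast known, nothing is read from these shares.

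**Figure D2:**
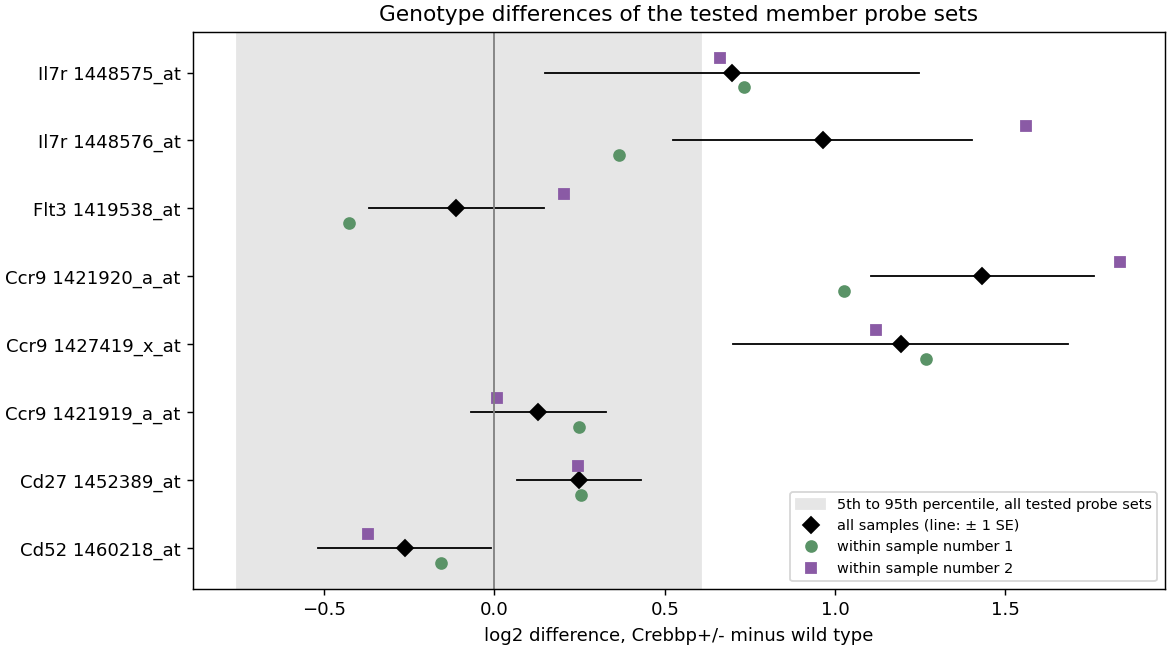
Log2 difference, Crebbp+/- minus wild type, of the 8 tested probe sets, with a diamond and line for all samples (± 1 SE), a circle within sample number 1 and a square within sample number 2. The grey band runs from -0.75 to 0.61, the 5th to 95th percentile of all tested probe sets. The diamonds of 2 Ccr9 and both Il7r probe sets lie to its right, and the genes were chosen with this contrast known.

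The sample number, a contrast separate from genotype, went with the brighter of the 2 Il7r probe sets. This contrast of number 2 with number 1 was fitted with genotype as a term. Its own error is only how far the number difference varied between the genotypes. Most of its 6.49 degrees of freedom in limma come from the variance of the other probe sets. The brightest Il7r probe set was higher in the samples numbered 2 by 1.08 on the log2 scale (SE 0.19, limma adjusted p = 0.027). Its 95% confidence interval ran from 0.61 to 1.55, with 1.12 within wild type and 1.04 within Crebbp+/-. Of the 8 tested probe sets, 1 passed, against 9.81% of all tested probe sets, and 2 had an unadjusted p under 0.05, against 28.6%. The share called among these genes is therefore near that of the array as a whole. The Il7r call held in 10 of 18 alternative fits, with adjusted p from 0.0013 to 0.39 and a difference between 0.89 and 1.27. Leaving out a single array ended it for array 2 of wild-type sample 1 (adjusted p = 0.075), arrays 1 and 2 of wild-type sample 2 (0.099 and 0.059), array 1 of Crebbp+/- sample 1 (0.058) and array 2 of Crebbp+/- sample 2 (0.072). It was also lost without a genotype term (0.24), with no filter (0.39) and without the intensity trend in eBayes (0.14).

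The Ccr9 probe set 1427419_x_at differed by 0.90 between numbers (SE 0.25, limma adjusted p = 0.068) and did not pass, nor did the brightest Ccr9 probe set at -0.32 (SE 0.24, interval -0.90 to 0.27). The dimmer Il7r probe set differed by 0.59 (SE 0.34, limma adjusted p = 0.30), at -0.005 within wild type and 1.19 within Crebbp+/-. The remaining differences, number 2 minus number 1, were 0.28 (SE 0.17) for Flt3 and 0.28 (SE 0.17) for Cd52. They were -0.07 (SE 0.13) for Cd27 and -0.14 (SE 0.23) for the dimmest tested Ccr9 probe set. For Flt3 the difference between numbers was 0.60 within Crebbp+/- and -0.03 within wild type, and whether these differ was not tested.

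**Figure D3:**
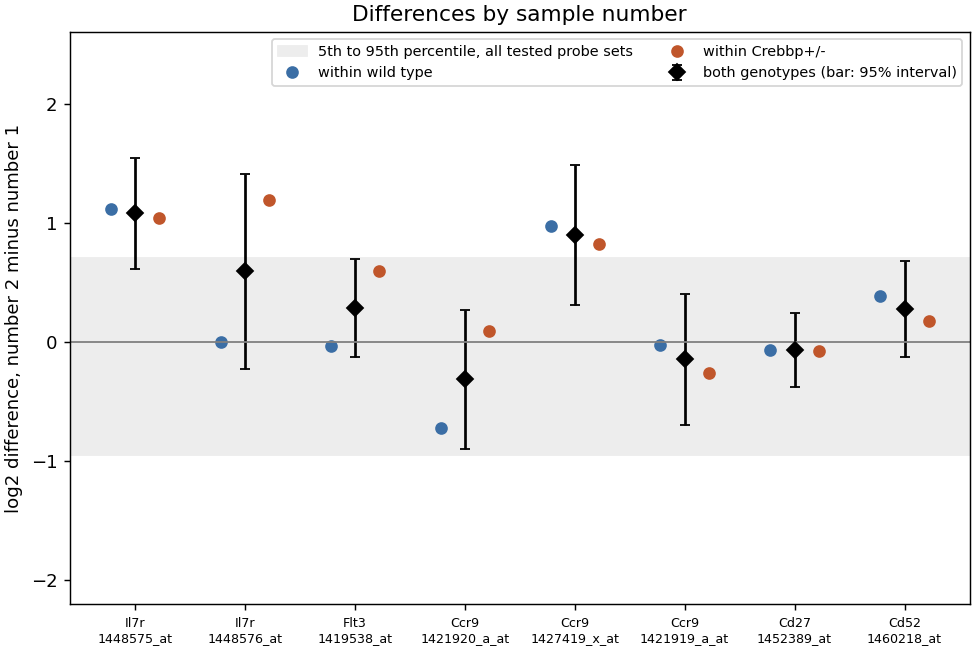
Log2 difference, sample number 2 minus number 1, of the 8 tested probe sets, with diamonds and 95% intervals from the fit over both genotypes and circles for the difference within wild type (blue) and within Crebbp+/- (orange). The grey band runs from -0.95 to 0.71, the 5th to 95th percentile of all tested probe sets, and the brightest Il7r probe set lies above it in both genotypes.

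Several other measures moved with the same sample number. The Gapdh 5' minus 3' signal, which falls as RNA degrades, was -1.22 and -2.59 in wild-type samples 1 and 2 and -0.89 and -1.88 in Crebbp+/- samples 1 and 2. Log2 of the summed signal of 9 measured macrophage and monocyte markers was 10.21 and 11.04 in wild type and 9.74 and 11.18 in Crebbp+/-, led by Csf1r, the receptor for macrophage colony-stimulating factor, and Ccr2, a monocyte chemokine receptor. Ccr2 had sample means of 7.60 and 8.06 in wild type and 7.22 and 8.21 in Crebbp+/-. Cd68, also above background, did not rise in wild type, at 6.01 and 5.87, and was at 5.41 and 5.89 in Crebbp+/-. Adgre1, the F4/80 antigen, was not above background by its mean. It was at 2.36 in both samples numbered 1 and at 3.07 and 2.72 in wild-type and Crebbp+/- sample 2. The 2 arrays behind the value of 2.72 read 3.07 and 2.37. Vcam1 and the complement genes C1qa and C1qc of that list were not above background either. The part of these measures in the Il7r difference was not tested.

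The summed markers of B lineage cells and of hepatocytes were lowest in wild-type sample 1, which was also the lowest sample for Il7r. Ebf1, a transcription factor needed to enter the B lineage, had sample means of 5.17 and 7.51 in wild type and 7.31 and 8.14 in Crebbp+/-, lowest and highest in the same samples as Il7r. Cd79b, a signalling chain of the B cell receptor and the brightest marker of that list, did not follow, at 8.19 and 8.20 in wild type and 8.28 and 8.01 in Crebbp+/-. The summed signal of 9 measured B lineage markers was 8.55 and 9.06 in wild type and 9.06 and 9.25 in Crebbp+/-, with Cd79a, Ms4a1, Pax5, Cd22 and Vpreb3 not above background in these cells. For 7 hepatocyte markers the sum was 5.85 and 9.80 in wild type and 8.32 and 8.87 in Crebbp+/-, led by Afp, alpha-fetoprotein, at 3.68, 8.50, 6.71 and 7.08 in the same order. Their part in the Il7r and Ccr9 differences was not tested.

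The sums of other marker lists ranged over less. The 9 measured T lineage markers summed to 6.27 and 6.31 in wild type and 6.27 and 6.41 in Crebbp+/-, and only Cd4 and Thy1 of them were above background by their mean. Thy1 lay above 2.72 only in wild-type sample 1, at 3.04, and Cd3e, Cd3d and Cd3g were not above it in any sample. For 9 dendritic cell markers, with Tcf4 and Irf8 brightest, the sums were 11.88 and 11.72, and 11.82 and 11.72. The 5 erythroid markers summed to 4.69 and 4.74 in wild type and to 4.85 and 4.96 in Crebbp+/-, and Epor, the erythropoietin receptor, was not above background. Only Slc4a1, the red cell anion exchanger, was above it, through the Crebbp+/- samples, at 2.46 and 2.52 in wild type and 2.93 and 3.45 in Crebbp+/-. All 4 Crebbp+/- arrays of Slc4a1 lay above all 4 wild-type arrays, but only barely. That order was seen at 3.24% of all tested probe sets. Slc4a1 passed the filter only through the Crebbp+/- samples, which favours that order, so nothing is read from it. Its Crebbp+/- arrays read 2.55 and 3.31 in sample 1 and 2.53 and 4.37 in sample 2, and the highest wild-type array read 2.53. The largest gap between repeats was 1.84, against a genotype difference of 0.70. The part of Slc4a1 in the differences above was not tested. The 9 stem cell markers, with Mecom and Mycn brightest, summed to 13.48 and 13.02 in wild type and 13.29 and 12.88 in Crebbp+/-. Of these 9, 4 had a positive genotype difference, with a median of -0.38. In limma 3 had an unadjusted p under 0.05, against 4.84% of all tested probe sets, and none passed after adjustment. The part of these markers in the differences above was not tested.

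**Figure D4:**
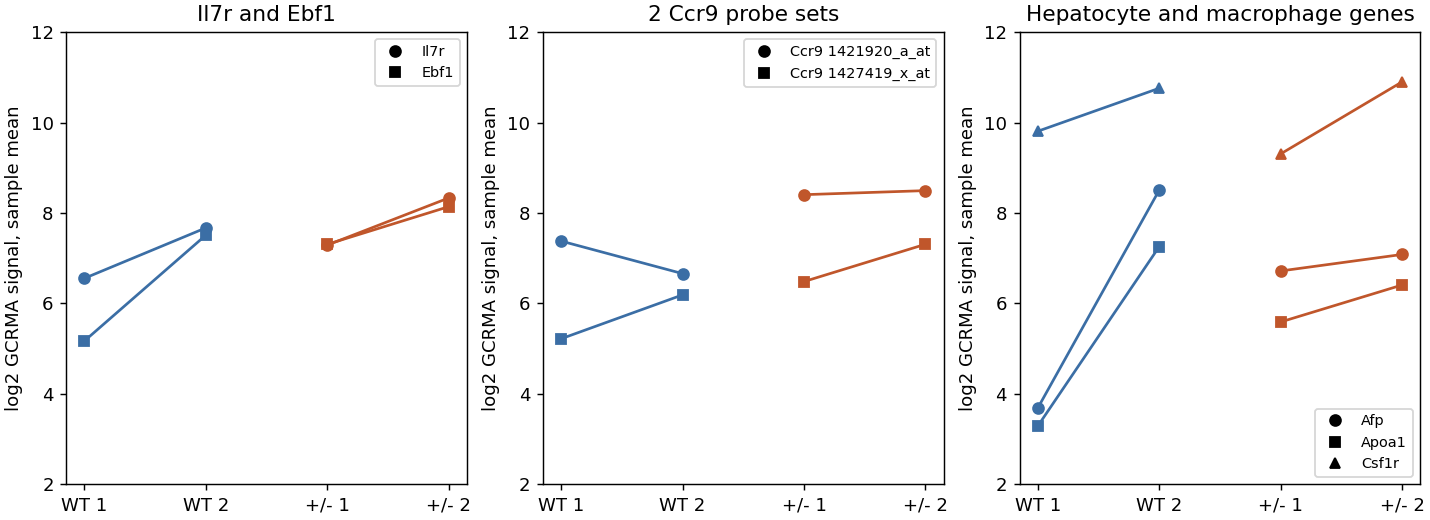
Sample means of GCRMA log2 signal in wild-type (blue) and Crebbp+/- (orange) samples 1 and 2 for Il7r and Ebf1, the 2 brightest Ccr9 probe sets, and Afp, Apoa1 and Csf1r. Only the course over samples can be compared between genes; Il7r and Ebf1 are lowest in wild-type sample 1, Afp and Apoa1 run from 3.68 to 8.50 and from 3.28 to 7.25 across wild type, and Csf1r is higher in number 2 of both genotypes.

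The partners listed for the interleukin-7 receptor showed no single direction by genotype over all samples. Of 16 genes listed for this pathway, 12 besides Il7r were tested, and 6 had a positive and 6 a negative difference, with a median of 0.03. The positive count was 7 within each number, 9 without wild-type sample 2 (median 0.12) and 9 without Crebbp+/- sample 1 (median 0.23). None passed in limma in either direction. Mcl1, a survival factor, was the brightest, at -0.22 (SE 0.18). Crlf2, the receptor chain for TSLP that shares Il7r, differed by -0.40 (SE 0.24), and Cish, a STAT5 target that damps cytokine signals, by 0.54 (SE 0.30). The Cish difference was 0.97 within number 1 and 0.10 within number 2. Repeat arrays of wild-type sample 1 read 2.64 and 4.82 for Cish, a gap larger than its genotype difference. The ligand Il7 and the inhibitor Socs1 were not above background.

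In the FLT3 signalling list, 11 of 12 tested genes besides Flt3 were on the positive side, and their median was 0.29, against 56.9% and a median of 0.04 over the 10600 genes tested. None passed. Within the numbers 9 and 11 of the 12 were positive, and without wild-type sample 2 it was 7, with a median of 0.11. Without Crebbp+/- sample 1 the median was 0.10. Grb2, an adaptor, was the brightest, at 0.31 (SE 0.41). Socs6, which binds and restrains receptor kinases, differed by 0.65 (SE 0.34), and Sh2b3, the adaptor LNK, by 0.33 (SE 0.20). The Flt3 probe set itself differed by -0.11.

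Of 22 measured genes listed as chemokine receptors and homing molecules, 9 were above background. Over the whole series 10600 of 18193 genes were. The 13 listed genes not above background included Ccr7, Ccr6, Ccr10 and S1pr1. Of the 8 tested besides Ccr9, 2 gave positive values (4 without Crebbp+/- sample 1, and 2 and 4 within numbers 1 and 2). Their median was -0.10, and none passed. Over all genes tested, 56.9% were positive and the median was 0.04. Cxcr4, the receptor that holds stem cells in their niche, was the brightest, at -0.22 (SE 0.13), and Cxcr2 differed by 0.16 (SE 0.21). Ccl25, the ligand of CCR9, differed by -0.19.

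Among the tumour necrosis factor receptor family and adaptors listed around Cd27, 2 of 10 tested genes gave positive values, the median was -0.25, and none passed. Over all genes tested, 56.9% were positive and the median was 0.04. The count of positive genes in the list was 4 without wild-type sample 2 or without Crebbp+/- sample 2. It was 5 within number 1 and 2 within number 2. Traf5, an adaptor that CD27 uses, differed by -0.95 (SE 0.32). It was the 1 gene of this list with an unadjusted p under 0.05 in limma, beside 4.84% of all tested probe sets. The repeat arrays of wild-type sample 1 read 5.42 and 3.57 for it, a gap larger than the genotype difference, and the arrays of the genotypes overlapped. Tnfrsf18, the receptor GITR, differed by -0.56 (SE 0.27), and Siva1, which binds CD27, by -0.14 (SE 0.35). The ligand Cd70 was not above background.

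Of 16 measured signalling genes around Blnk, 14 gave signal above background, and Blnk and Cd79a did not. Of the 14, 6 differed upward and 8 downward, at a median of -0.08, and none passed. Over all genes tested, 56.9% were positive and the median was 0.04. Btk, the kinase of B cell receptor signalling, had sample means of 10.08 and 10.07 in wild type and 9.73 and 10.10 in Crebbp+/-. Syk, the kinase upstream of BLNK, had 8.28 and 8.74 in wild type and 8.75 and 9.11 in Crebbp+/-. Lcp2, the adaptor SLP-76 that is related to BLNK, differed by -0.61 (SE 0.29), and Lat, a membrane adaptor of T cells, by -0.49 (SE 0.28).

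For the small lipid-anchored proteins listed with Cd52, 3 of 6 tested genes gave positive values, the median was 0.09, and none passed. Cd24a, the heat-stable antigen, was the brightest, at -0.03 (SE 0.11), and Ly6e and Cd59a differed by 0.21 (SE 0.12) and 0.42 (SE 0.36). Both Crebbp+/- samples were above both wild-type samples for Ly6e, as at 15.6% of all tested probe sets, and not for Cd59a. In a list of other genes of lymphoid-primed progenitors, 10 of 12 tested gave positive values, against 56.9% of all genes tested. The median was 0.21, against 0.04, and none passed. With 1 sample left out the count was 8 or 9, and the median was 0.11 without wild-type sample 2 and 0.12 without Crebbp+/- sample 2. Satb1, a chromatin organiser, differed by 0.06 (SE 0.14), and the recombinase genes Rag1 and Rag2 by 0.87 (SE 0.29) and 0.49 (SE 0.27), each with wild-type signals close to background. Dntt, the terminal transferase of early lymphoid cells, was not above background. That list was written with earlier results on such genes known, so its direction is no independent evidence.

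The patterns of Il7r, Flt3, Ccr9, Cd27 and Cd52 over the 8 arrays were compared with those of 10599 other genes by Pearson correlation, each gene by its brightest probe set. Closest to Il7r were Cry1 (r = 0.97) and Emc7 (0.97), and 56 genes exceeded 0.9. Closest to Ccr9 were Dnajc25 (0.97) and Bloc1s6 (0.96), with 46 above 0.9, and closest to Flt3 were Rhot2 (0.96) and Rmc1 (0.96), with 25. S1pr3 (0.96) and Rhof (0.96) were closest to Cd27, with 14, and Mepce (0.97) and Zfp277 (0.95) to Cd52, with 20. The arrays share genotype, sample and processing, and repeats of a sample are not independent, so these values are a description. None of Il7r, Flt3, Ccr9, Cd27 and Cd52 was among the closest to another of them. Ccr7 and Blnk, not above background, were not compared. The brightest Il7r and Ccr9 probe sets correlated at only 0.33, while that Il7r probe set and the Ccr9 probe set 1427419_x_at correlated at 0.87.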

How the data were processed

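The deposited values are log2 signals that the authors made with GCRMA, per the submitters' processing notes, with version and settings not given in the sources used here. RNA was amplified from 12 ng of total RNA per preparation, per the labels. Gene names came from the platform annotation and were checked through gene identifiers against a GRCm38.p6 gene table. Identifiers of 34741 of 34945 probe sets with 1 symbol matched. Another 932 probe sets had several symbols and 9160 had none listed, and 64 control probe sets were left out.

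Repeat arrays were averaged and the 22518 probe sets above the filter entered a linear model in limma (version 3.58.1, R 4.3.3) with lmFit and eBayes with an intensity trend. P-values had Benjamini-Hochberg adjustment over all of them and a threshold of 0.05. The procedure was tested on simulated data. With 2 samples against 2, the number of samples limits the precision. The genes and lists were chosen with earlier results of these data known. Named were all probe sets of the 7 genes, in each pathway list the brightest gene and the 2 with the lowest unadjusted p, in marker lists the 2 brightest, and for each gene the 2 with the closest pattern. Genes named beyond this rule (Il7, Socs1, Cd70, Btk, Syk, Dntt, Ccl25, Kit, Cd68, C1qb and members of lists not above background) were chosen after their values were seen. Alternatives covered the unit of replication, block, filter, added normalization, variance model, a floor, other probe sets per gene and leaving out samples or arrays.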

Additional observations from a re-analysis of the deposited data

Results flagged for a closer look

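The arrays of each genotype were searched for a value far from the other 3, in 24 groups of 4 arrays. Chance would flag about 1 in 20 such groups with independent arrays, and these arrays repeat their samples. The 4 values found belong to probe sets below the filter level of 2.72. For Ccr7, array 2 of wild-type sample 1 read 2.69 where the other wild-type arrays read 2.31 to 2.34, and array 1 of Crebbp+/- sample 1 read 2.55 where the others read 2.33 to 2.35. For Blnk, array 1 of wild-type sample 2 read 2.44 and array 1 of Crebbp+/- sample 2 read 2.54, with the other arrays at 2.29. In each case the repeat array of the same sample lay with the others.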

How the results depend on the processing

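In limma, 0 probe sets were called between genotypes in all alternatives but one, among them the fit that took the number as replicate block, which called 0 and had 3673 probe sets with an unadjusted p under 0.05. With 8 arrays as independent, 1 was called, a probe set that is unnamed here and was lower by 1.70 in Crebbp+/- (a difference of -1.70). Between sample numbers 2209 probe sets were called. That count was 4587 with 8 arrays as independent, 6504 with the sample as a random block, 3646 over the upper 25%, and 0 without a genotype term, with no filter and with eBayes without trend (unadjusted p under 0.05 for 4222, 5210 and 5313). Leaving out 1 array gave 0 to 2403, with 0 without array 2 of wild-type sample 1 and without either array of wild-type sample 2 (unadjusted for 5535, 5525 and 5635). Leaving out a whole sample left no residual degrees of freedom for this contrast, so it was not run there. Of the probe sets of the 7 genes, 6 of 8 tested had a positive genotype difference, and 3 of 5 did over the upper 25%. Deviations of same-numbered samples from their group means correlated at 0.55, but the samples share only a number. The cause of these changes was not tested. Counts in the pathway lists without each sample were chosen after seeing the data.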
